A study of Mus musculus with 4 samples.

Results

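The 33 genes described here encode proteins that carry a cell through mitosis and cytokinesis, and they were listed by name, not by their values. Of these, 32 had at least 1 probe set that carried their symbol alone, 69 probe sets in all among the 45037 tested, and Ccnb1 was not analysed here. Where a gene had several probe sets, the brightest on average was taken for it, as for each of the 18193 genes in total. Expression was measured in subclones of 36-65, a mouse hybridoma (the immortal product of a B cell joined to a myeloma cell, which secretes 1 antibody). Subclones L25 and L27 switched the class of their antibody at low frequency in vitro, and subclones H23 and H27 did so spontaneously at high frequency. All 4 grew in the same medium with 10% fetal calf serum, each is a clone of that 1 line, and each contributed 1 Affymetrix array of total RNA. No treatment, time course or culture density is named in the labels. Nothing in the labels says that the subclones of a class arose separately, so each p-value reflects no more than the scatter of these 4 arrays, which may be technical.

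Entry into mitosis is driven by cyclin A and cyclin B bound to the kinase Cdk1, which the Cdc25 phosphatases switch on. Polo-like and Aurora kinases then build the spindle, the checkpoint holds back anaphase until every kinetochore is attached, and the anaphase promoting complex ends mitosis by marking securin and the cyclins for destruction. The transcripts of these proteins accumulate late in the cell cycle, and in dividing cultures their level is widely read as a measure of proliferation. Promoter elements known for this timing are the CCAAT box, bound by NF-Y, and the CHR (cell cycle genes homology region), through which the DREAM and MuvB complexes act.

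Promoter windows, running from 250 bases before to 50 bases after a gene's start, were held in RefSeq (build GRCm38.p6) for 28 of the 33 genes, with 31 starts. The genes with none were Ccna2, Cdc25c, Aurkb, Kif20a and Tpx2. The CHR was searched as TTTGAA and the CCAAT box as CCAAT, on both strands, and the motifs can share at most 1 letter, at their ends. A CHR match was found in 23 of the 31 windows (74.2%), against 17.9% of all 32851 windows of that length. A CCAAT match was found in 26 (83.9%), against 37.4% of all windows, and both were found in 22 (71.0%), against 6.95%. The windows of replication and S phase genes held a CHR match in 12.5% and a CCAAT match in 60.0% of 40, and those of other mitotic genes in 40.6% and 57.5% of 106. A match is a description of letters and not of binding. The 120 bases before the start are given here for 6 genes with both motifs and for Cenpe, the member with the largest difference between the classes; capitals mark the matches of both motifs on either strand.
Cdk1 (chr10:69352913-69353032, minus strand): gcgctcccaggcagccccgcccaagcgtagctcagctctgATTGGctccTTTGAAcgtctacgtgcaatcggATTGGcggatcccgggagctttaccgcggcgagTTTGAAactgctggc
Cdc20 (chr4:118437344-118437463, minus strand): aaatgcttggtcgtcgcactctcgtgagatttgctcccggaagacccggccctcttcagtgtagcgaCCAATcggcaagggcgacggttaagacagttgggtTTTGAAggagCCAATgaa
Top2a (chr11:99024190-99024309, minus strand): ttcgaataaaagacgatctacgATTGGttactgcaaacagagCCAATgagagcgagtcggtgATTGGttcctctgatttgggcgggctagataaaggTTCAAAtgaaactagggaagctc
Ube2c (chr2:164769809-164769928, plus strand): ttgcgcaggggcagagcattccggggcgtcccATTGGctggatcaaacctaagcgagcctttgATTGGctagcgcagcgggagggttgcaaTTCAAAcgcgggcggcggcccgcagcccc
Kif11 (chr19:37376262-37376381, plus strand): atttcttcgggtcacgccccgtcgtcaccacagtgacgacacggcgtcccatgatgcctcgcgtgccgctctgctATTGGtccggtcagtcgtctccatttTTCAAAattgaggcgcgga
Espl1 (chr15:102296173-102296292, plus strand): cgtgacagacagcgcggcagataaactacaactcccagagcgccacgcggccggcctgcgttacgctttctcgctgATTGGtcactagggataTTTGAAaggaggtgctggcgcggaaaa
Cenpe (chr3:135212443-135212562, plus strand): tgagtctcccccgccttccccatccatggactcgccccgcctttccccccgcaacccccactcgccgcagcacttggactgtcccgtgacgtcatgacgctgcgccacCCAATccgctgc

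In Cdk1, Cdc20, Top2a, Ube2c, Kif11 and Espl1 a CHR lay within 50 bases of the start, downstream of a CCAAT box. The Cenpe window held a CCAAT box and no CHR letters. Of 59 CCAAT matches in the 31 windows, 39 lay in the 100 bases before the start and 1 after it. Bub3, Ect2 and Prc1 had more than 1 start each, and their overlapping windows counted the same sites again. The CCAAT match after the start, in Ect2, lay before the start in that gene's other window. Of 30 CHR matches, 11 lay in those 100 bases and 13 after the start.

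**Figure D1:**
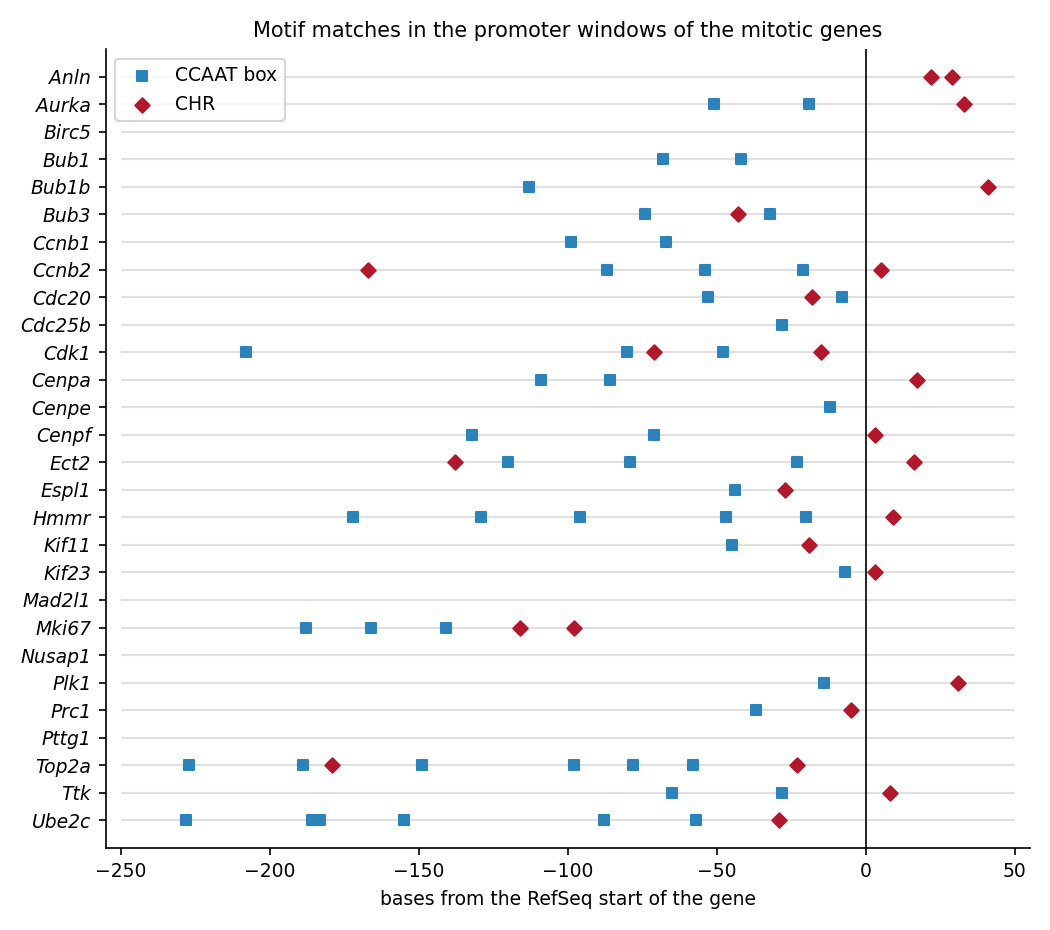
Matches of the CHR (diamonds) and the CCAAT box (squares) in RefSeq promoter windows of 28 mitotic genes, with 1 window for each gene, by distance in bases from the start of the gene (vertical line). CHR matches gather around the start and CCAAT matches before it, and Birc5, Mad2l1, Nusap1 and Pttg1 have neither.

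The arrays first had to be placed. Markers of plasma and B cells had a median log2 intensity of 12.58 over 10 genes, among them Jchain (14.44 on average) and Sdc1 (12.52), while Cd79a (5.13) lay near the median probe set of the arrays (5.25 to 5.30). Marker lists of T, myeloid, erythroid and fibroblast cells had median levels from 4.39 to 6.06, although single genes such as Cd68 (9.99) were bright. Some markers differed between the classes at a limma adjusted p under 0.05, as did 4.82% of all genes. Xbp1 (-0.71), Tnfrsf17 (-0.715) and Itgam (-1.38) were lower in high switching subclones, and Cd79b (0.77) and the dim Lum (1.21) were higher. No other listed marker passed. Bacterial and phage transcripts added as hybridization controls read higher on L25 (11.32) and H27 (11.23) than on L27 (10.72) and H23 (10.79), which crosses the classes. The mitotic genes themselves were well measured: every gene's chosen probe set had a mean of at least 8.09, and 57 of the 69 probe sets lay above the median probe set.

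High and low switching subclones had nearly the same typical level of mitotic transcripts. Of the 32 genes, 15 had a higher and 17 a lower mean in high switching subclones, and the median log2 difference was -0.005, against 0.008 over all genes. Of the 69 probe sets, 1 passed limma's test at an adjusted p under 0.05, a probe set of Cenpe that rose, against 3.59% of all probe sets. By the probe set that stands for each gene, 0 of 32 genes passed, against 4.82% of all genes, and the lowest adjusted p was 0.0797. At an unadjusted p under 0.05, limma gave 5 genes higher and 2 lower, which is 21.9% of the members and 22.9% of all genes. The arrays of the classes did not overlap for 15 members (46.9%), against 51.4% of all genes. Among the 2717 genes as bright as most members, with a mean of at least 10, 66.4% did not overlap and 34.3% had an unadjusted p under 0.05. The 95% interval of the difference lay within 2-fold in either direction for 31 of the 32 genes, all but Cenpe, and within 1.5-fold for 21. With 2 arrays in each class the smallest two-sided p of an exact permutation test is 0.333, and limma's p-values borrow their variance from the other probe sets.

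**Figure D2:**
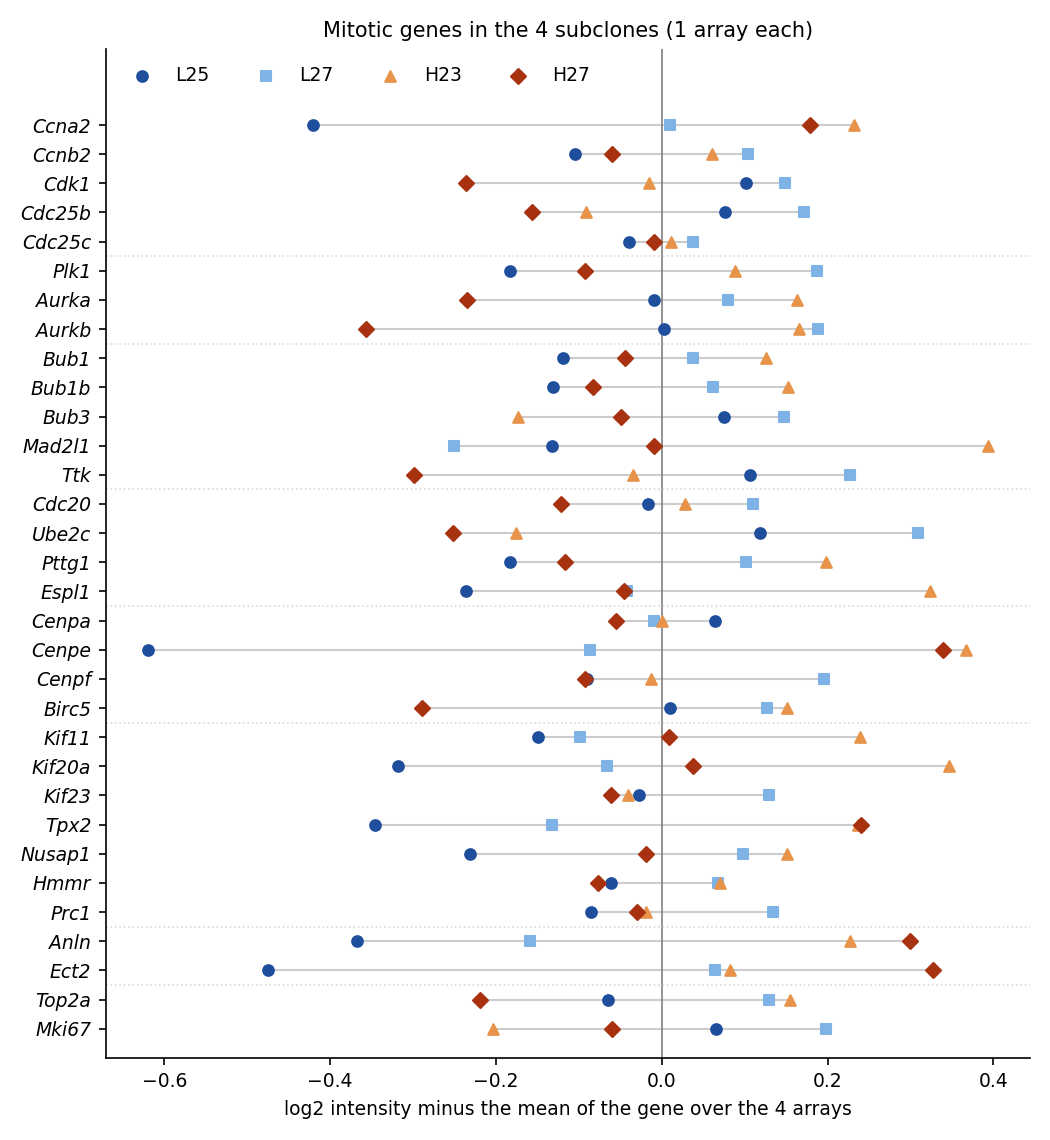
Log2 intensity of each of the 32 mitotic genes in the 4 subclones, as the difference from the gene's own mean (1 array for each subclone; grey lines span the 4 values and dotted lines part the roles). L25 is the lowest array for 16 genes and H27 for 13, while L27 and H23 are each the highest for 14.

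Within the low switching class, L27 read higher than L25 in 30 of the 32 genes, with a median log2 difference of 0.19, while 49.3% of all genes were higher in L27 and their median was -0.003. H27 read lower than H23 in 27 of the 32, with a median of -0.15, against 52.8% of all genes and a median of -0.01. Both held for 25 members (78.1%), against 26.5% of all genes and 26.4% of the 2717 genes with a mean of at least 10. With 1 array for each subclone these differences have no test, and no member reached 2-fold within a class.

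The arrays with low readings of these genes were those with high hybridization controls. The mean over the 32 genes was 10.87 in L25 and 10.94 in H27, where the controls were high, and 11.06 in L27 and 11.09 in H23, where they were low. Actin probe sets, whose 3′ minus 5′ log2 difference is a sign of RNA quality, gave 0.29 in L25 and 0.33 in H27 against 0.23 in L27 and 0.22 in H23. Those of Gapdh did not split the arrays this way, with -0.20 in both low switching subclones, -0.16 in H23 and -0.17 in H27. The part of these levels in the result was not tested, and with 1 array a subclone it cannot be told apart from the subclones themselves. Between arrays of like control level, H23 minus L27 had a median of 0.01 over the members and H27 minus L25 a median of 0.04, against 0.02 and -0.004 over all genes. In bulk RNA, fewer cells in mitosis and less of a transcript in each cell cannot be told apart either.

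Replication and S phase genes, the nearest group in the cell cycle, moved differently within the low switching class. Of 42 such genes, 15 were higher in L27 than in L25, with a median of -0.05, where the mitotic genes had 30 of 32 and 0.19. In the high switching class the 2 groups had the same direction, with 40 of 42 replication genes lower in H27 than in H23 and a median of -0.31. Between the classes the replication genes had a median of -0.35, while the mitotic median was near 0. By limma, 2 of the 42 were lower and 0 higher, near the 4.82% of all genes called. At an unadjusted p under 0.05, limma gave 18 lower and 1 higher (45.2%). That share was 22.9% of all genes and 34.3% of genes with a mean of at least 10. The difference between the groups was not tested.

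**Figure D3:**
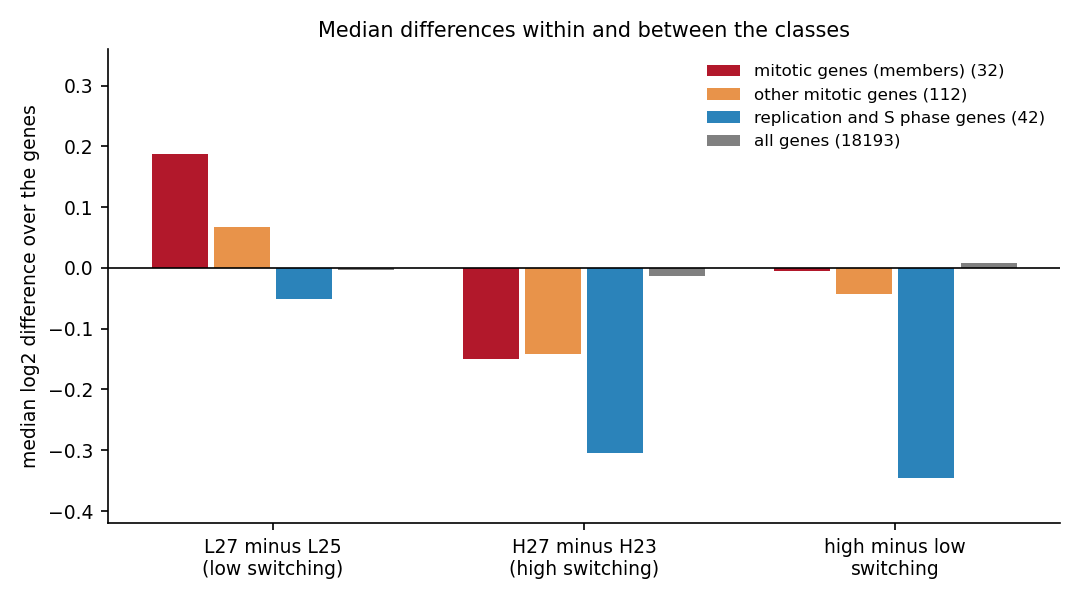
Median log2 difference over the genes of each list for L27 minus L25, H27 minus H23 and high minus low switching (bars start at 0; number of genes in parentheses). The mitotic genes are at 0.19, -0.15 and -0.005, while replication and S phase genes are at -0.05, -0.31 and -0.35.

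Among the cyclins and their kinase, Ccna2 had the largest difference. Ccna2, the cyclin of S phase and early mitosis, read 10.80 in L25, 11.23 in L27, 11.45 in H23 and 11.39 in H27 (log2 intensity). Both high switching arrays lay above both low switching arrays, but the step from L25 to L27 (0.43) was larger than the step from L27 to H23 (0.22). The class difference was 0.41 ± 0.16 (SE; limma adjusted p = 0.249), and the second probe set gave 0.47. Ccnb2, a B-type cyclin, had means of 12.22 ± 0.15 (SD, n = 2) in low and 12.22 ± 0.09 in high switching subclones, a difference of 0.001 with an interval from -0.30 to 0.30. Cdk1, the kinase both cyclins activate, read 11.85, 11.90, 11.74 and 11.51 in L25, L27, H23 and H27. Its values in high switching subclones lay below those in low switching subclones, by 0.25 ± 0.12 (adjusted p = 0.352 by limma). The phosphatase Cdc25b had a difference of -0.25 ± 0.11, and Cdc25c of 0.002 ± 0.11.

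Among the 3 mitotic kinases, both Aurora kinases were lowest in H27 and Plk1 in L25. Aurkb, the Aurora kinase of the chromosomal passenger complex, read 11.46 in L25, 11.65 in L27, 11.63 in H23 and 11.10 in H27, so that H27 stood below the other arrays and the classes overlapped. H27 minus H23 was -0.52, the lowest such value among the members, and its second probe set gave -0.45. Aurka, the Aurora kinase of the spindle poles, read 10.49, 10.58, 10.66 and 10.26 in the same order, again lowest in H27. Plk1, the polo-like kinase, read 10.26, 10.63, 10.53 and 10.35, with L25 lowest. The class differences of Aurkb, Aurka and Plk1 were -0.19 ± 0.19, -0.07 ± 0.16 and -0.003 ± 0.16, and none passed. Birc5 (survivin), a partner of Aurkb in the passenger complex, was also lowest in H27, with 11.69, 11.81, 11.83 and 11.39.

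Genes of the spindle checkpoint went both ways. Mad2l1, the checkpoint protein that holds Cdc20, read 11.22 in L25, 11.10 in L27, 11.75 in H23 and 11.34 in H27, a class difference of 0.38 ± 0.16 (limma adjusted p = 0.272). It was 1 of 2 members, with Cenpa, that were not higher in L27 than in L25. Ttk, the kinase MPS1 that starts the checkpoint, read 10.76, 10.88, 10.61 and 10.35, a difference of -0.33 ± 0.13 (adjusted p = 0.254 by limma). Bub3, the checkpoint adaptor, had a difference of -0.22 ± 0.11, and all 5 of its probe sets were negative, but with the median of its neighbouring genes subtracted it turned to 0.09. Its partners Bub1 and Bub1b had differences of 0.08 ± 0.12 and 0.07 ± 0.14, with H23 the highest and L25 the lowest of the 4 arrays for each.

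Of the genes that end mitosis, Ube2c stood lowest in the high switching class. Ube2c, the ubiquitin-conjugating enzyme of the anaphase promoting complex, read 11.89 in L25, 12.08 in L27, 11.59 in H23 and 11.52 in H27. The arrays did not overlap, and the difference of -0.43 ± 0.12 was the lowest of all members but did not pass (limma adjusted p = 0.122). With its neighbours subtracted it was -0.23, and Ttk (-0.31) was then the lowest member. Cdc20, the activator of that complex, differed by -0.09 ± 0.12, and all 3 of its probe sets were negative. Pttg1 (securin) and Espl1 (separase), the inhibitor and the protease that cuts sister chromatids apart, had differences of 0.08 ± 0.16 and 0.28 ± 0.16. Espl1 read 9.93, 10.12, 10.49 and 10.12 in L25, L27, H23 and H27, so H27 was level with L27 and only H23 stood higher.

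Cenpe, a kinesin that moves chromosomes along the spindle from the kinetochore, had the largest difference of any member. The probe set that stands for it read 9.02 in L25, 9.55 in L27, 10.00 in H23 and 9.97 in H27, a difference of 0.71 ± 0.18 (1.63-fold; limma adjusted p = 0.107). Its dimmer probe set read 6.82, 7.13, 8.03 and 8.04, a difference of 1.06 ± 0.14 (2.08-fold; limma adjusted p = 0.0195), and it was the 1 member probe set past the threshold. On both, the high switching arrays lay close together and L25 was lowest. The call ended without L25, without H23 and without H27, where the difference was 0.90, 1.07 and 1.05, and held without L27 (1.22). Leaving out an array ended most calls over the whole array too. Cenpa, the centromeric histone, and Cenpf, a kinetochore protein, had differences of -0.05 ± 0.11 and -0.11 ± 0.13.

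Spindle motors and microtubule proteins were divided. Tpx2, which activates Aurora A at the spindle, read 10.71 in L25, 10.93 in L27 and 11.30 in both high switching subclones. Its difference of 0.48 ± 0.12 (adjusted p = 0.0982 by limma) had the same sign on all 4 of its probe sets. Kif20a and Kif11, mitotic kinesins, had differences of 0.38 ± 0.15 and 0.25 ± 0.12, and all 3 Kif11 probe sets were positive, although Kif11 turned to -0.13 with its neighbours subtracted. Kif23, Hmmr and Prc1, which organize the midzone or the spindle, had differences of -0.10 ± 0.11, -0.01 ± 0.12 and -0.05 ± 0.12, and Nusap1 of 0.13 ± 0.15. Nusap1 read 10.54, 10.87, 10.92 and 10.75 in L25, L27, H23 and H27. The steps within each class, with L27 above L25 and H27 below H23, had these directions in 6 of the 7 genes of this group.

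Anln and Ect2, the members listed under cytokinesis, both read higher in high switching subclones. Of 5 further cytokinesis genes, 2 were higher and 3 lower, with a median of -0.002. Anln, the scaffold anillin of the cleavage furrow, read 9.87 in L25, 10.08 in L27, 10.46 in H23 and 10.53 in H27, a difference of 0.53 ± 0.12 (limma adjusted p = 0.0797). Ect2, which activates the GTPase RhoA at the furrow, read 8.44 in L25, 8.98 in L27 and 9.24 in H27, with H23 only 0.02 above L27, so that L25 stood apart. Its difference was 0.41 ± 0.20 (limma adjusted p = 0.35). In the other direction, Mki67, the proliferation marker Ki-67, read 12.33, 12.47, 12.06 and 12.21, a difference of -0.26 ± 0.12. Its neighbours had a median of -0.27, and with them subtracted it was at 0.01. Top2a, which untangles chromosomes before they part, read 12.50, 12.70, 12.72 and 12.35, with a class difference of -0.06 ± 0.16 and -0.37 for H27 minus H23.

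**Figure D4:**
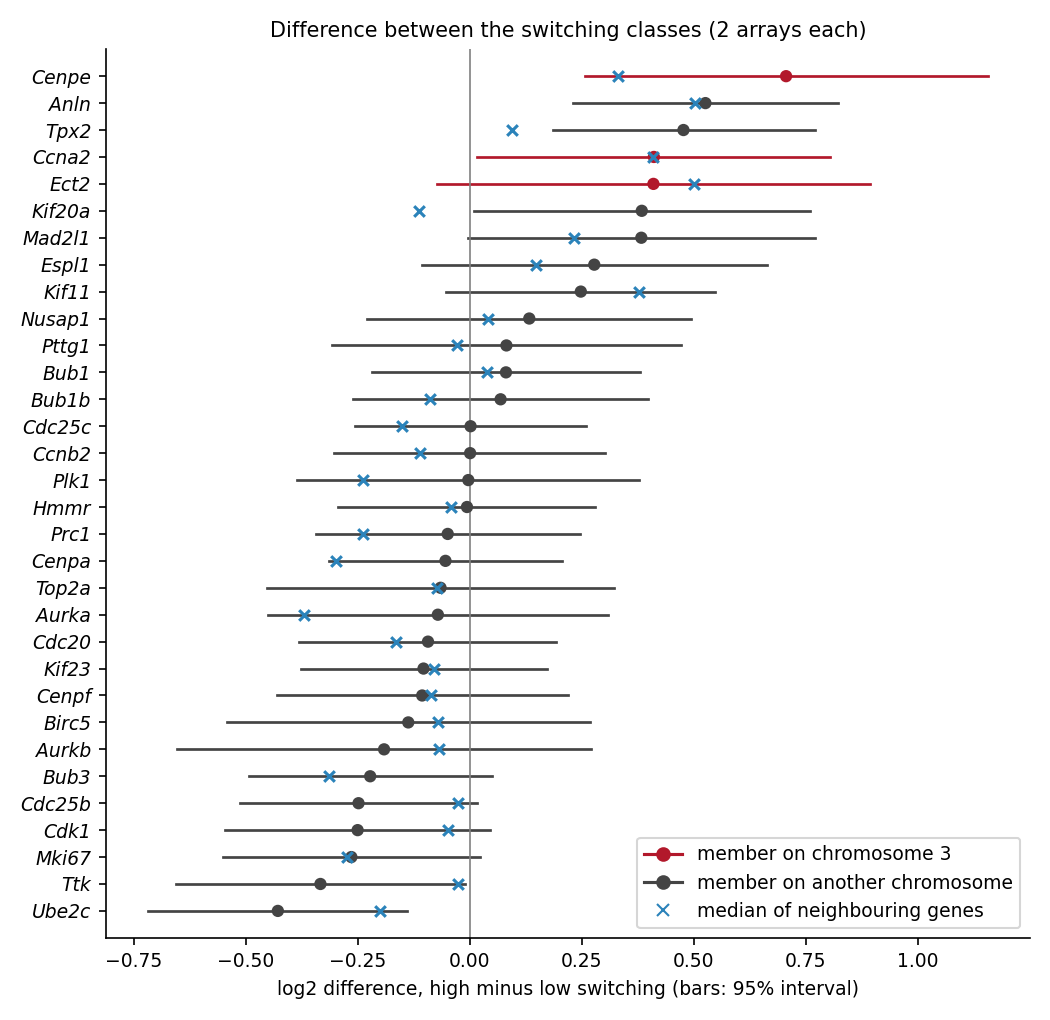
Log2 difference between high and low switching subclones for each mitotic gene (points, with 95% limma intervals), and the median of its neighbouring genes on the same chromosome (crosses). The 3 members on chromosome 3 are among the 5 highest positive differences, at 0.71 for Cenpe and 0.41 for Ccna2 and Ect2.

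Some of the larger differences lay among neighbouring genes with differences of like size. Cenpe, Ccna2 and Ect2 all lie on chromosome 3, whose 370 genes above a mean level of 7 showed a median class difference of 0.37, the highest of the 20 chromosomes with such genes. The chromosome 3 genes also had a median of 0.26 for L27 minus L25, where Ect2 (0.54), Cenpe (0.53) and Ccna2 (0.43) had the largest steps of all members. For H27 minus H23 their median was 0.18, where Ect2 had 0.25, Cenpe -0.03 and Ccna2 -0.055. Against the 20 genes on each side, Ccna2 had a difference of 0.41 where its neighbours had a median of 0.41, and Ect2 of 0.41 where they had 0.50. Of their neighbours, some of which they share, 39 of 40 and 35 of 37 were above 0, as were 36 of 40 for Cenpe. Anln, on chromosome 9, had neighbours at 0.50 beside its own 0.53. With the neighbours' median subtracted on each array, an alternative chosen after seeing the data, Ccna2 was at 0.002 ± 0.14, Ect2 at -0.09 ± 0.13 and Anln at 0.02 ± 0.12. Cenpe was at 0.38 ± 0.14 (limma adjusted p = 0.13), above all but 3 of its 40 neighbours without that subtraction. Tpx2 went from 0.48 to 0.38 ± 0.12 and Kif20a from 0.38 to 0.50 ± 0.17, and neither passed. The part of chromosome copies in these values was not tested. The steps within the classes were still seen after the subtraction, with medians of 0.14 for L27 minus L25 and -0.17 for H27 minus H23.

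**Figure D5:**
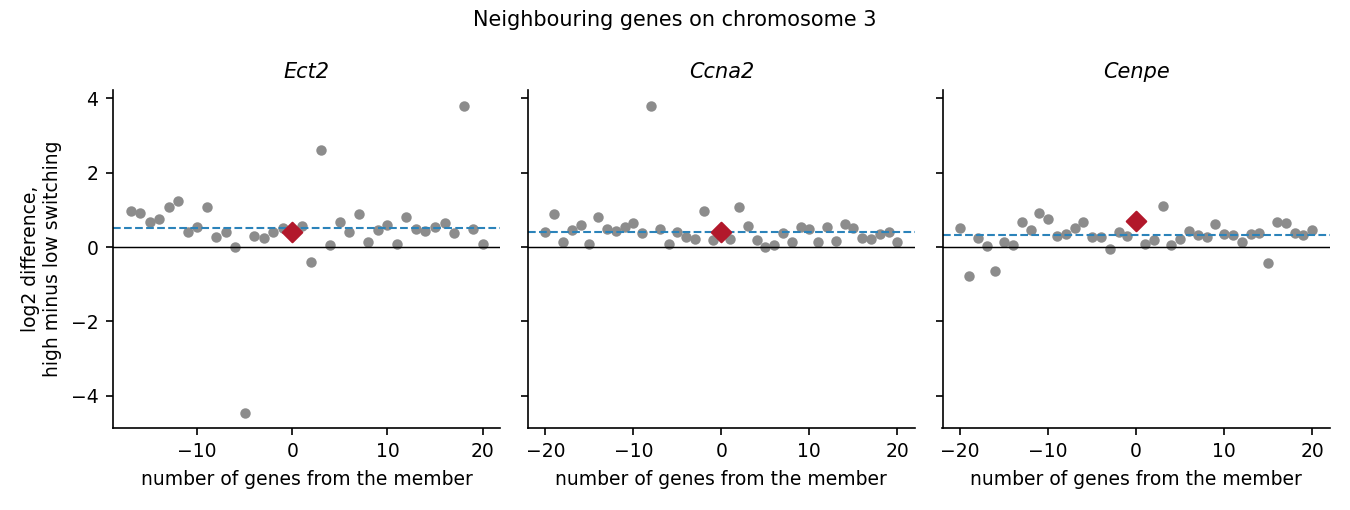
Log2 difference between high and low switching subclones for Ect2, Ccna2 and Cenpe (red diamonds) and up to 20 neighbouring genes on each side (grey points), in the order of the genes on chromosome 3; the dashed line is the neighbours' median. Ect2 and Ccna2 lie near the line, and Cenpe (0.71) lies above its line at 0.33.

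Probe sets of 1 gene did not always have the same sign. Of the 21 members with more than 1 probe set, 6 were positive on all, 7 negative on all and 8 had both signs. Cenpa had 0.23 on a dimmer probe set beside -0.05 on its brightest, and Nusap1 had -0.25 on a dim probe set with a mean of 4.73 beside 0.13. The others with both signs were Bub1, Bub1b, Cdc25c, Kif23, Prc1 and Top2a. Kif23 had 0.05 and Prc1 0.04 on a further probe set, with means of 8.98 and 10.35, against negative values on their brightest. Cdc25c had -0.13 on its dimmer probe set, and Top2a had 0.05 and 0.115 on its dimmer ones. Pttg1 was positive on all 3, with 0.08, 0.15 and 0.29.

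Few genes of the wider mitotic machinery passed between the classes. A further 113 genes were listed for the kinetochore and centromere, checkpoint, passenger complex, condensin, cohesin, spindle, anaphase promoting complex, mitotic entry and exit, and cytokinesis. Of these, 112 were measured, and their median class difference was -0.04. By limma 1 was higher and 2 were lower, against 4.82% of all genes, and 33 (29.5%) had an unadjusted p under 0.05, against 22.9% of all genes and 37.1% of genes with a mean of at least 7. Spc24, a subunit of the kinetochore's NDC80 complex, rose by 0.63 ± 0.11 (adjusted p = 0.0374), with 9.30 and 9.24 in L25 and L27 and 9.93 and 9.87 in H23 and H27. Kif18a, a kinesin that shortens kinetochore microtubules, fell by 0.87 ± 0.11 on the log2 scale (adjusted p = 0.0173; its dim second probe set gave -0.29), and Nde1, a dynein regulator, fell by 0.65 ± 0.11 (adjusted p = 0.0418). For each of the 3 the arrays of the classes were separated by more than their spread within a class. Leaving out any 1 of the 4 arrays ended each call, and it ended most calls over the whole array too. The differences then lay from 0.599 to 0.666 for Spc24, -0.91 to -0.838 for Kif18a and -0.735 to -0.566 for Nde1. Spc24 lies on chromosome 9, where its neighbours had a median of 0.46, and its call also ended with that median subtracted (0.18). Kif18a and Nde1 still passed with their own neighbours subtracted, where 11.65% of 8205 genes passed.

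Others with large differences that did not pass were Ska3 (0.57 ± 0.15), Smc4 (0.52 ± 0.20), Anapc10 (0.50 ± 0.17) and Kif20b (0.42 ± 0.11) in one direction, and Ncapg (-0.60 ± 0.15), Cenpc1 (-0.55 ± 0.15) and Mybl2 (-0.53 ± 0.19) in the other. For Mybl2, 1 of 2 probe sets passed, but not the brighter one. Smc4 also lies on chromosome 3, with neighbours at 0.44, and Ncapg lies on chromosome 5, with neighbours at -0.46. The rest also had neighbours of their own sign, at 0.36 for Kif20b, 0.26 for Anapc10, 0.22 for Ska3, -0.31 for Cenpc1 and -0.24 for Mybl2. Within the classes these 112 genes had medians of 0.07 for L27 minus L25 and -0.14 for H27 minus H23, in the same directions as the members. The pattern was less common among them: both steps held for 48.2%, against 78.1% of the members and 26.5% of all genes. The 7 further checkpoint genes had a median of -0.12 for L27 minus L25.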

How the data were processed

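The deposited values are linear intensities, 1 for each probe set. Per the submitters' processing notes they come from RMA (background correction, normalization between arrays and summary of probes) of no stated version, and a genome build is not named there. Values were transformed to log2, 64 of 45101 probe sets were left out as controls, and 45037 were tested with no filter. The platform annotation of 2016 gave 1 symbol for 34945 probe sets, several for 932 and none for 9160. A RefSeq gene table (GRCm38.p6) served for the chromosome and order of genes, and 34735 probe sets matched it.

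The class difference was fitted in R 4.3.3 by limma 3.58.1, using lmFit and then eBayes. Its two-sided p-values were adjusted by Benjamini-Hochberg across the whole array and called under 0.05, and SEs are moderated. The fit was tested on simulated data. Differences between subclones of a class are single subtractions. The number of arrays limits the precision. The genes, lists and tests were chosen with earlier results of these data known. All members are named, as are further mitotic genes that passed and the 5 largest and 5 smallest differences among those with a mean of at least 7. Alternatives are in the closing section. Neighbour medians used up to 20 genes on each side with a mean of at least 7. Figures were drawn with matplotlib 3.10.9.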

Additional observations from a re-analysis of the deposited data

How the results depend on the processing

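The count of member probe sets past the threshold was 1, a Cenpe probe set, with a variance trend (robust or not), with dim probe sets removed, with each other normalization, with log2 of the value plus 16, and without probe sets that can match several transcripts; with probe sets averaged it was Cenpe as a gene. It was 0 with hybridization control level as a blocking term and with the median of neighbouring genes subtracted, both chosen after seeing the data. The share of all probe sets called moved as well, from 3.59% to 0.338% with the block. That share was 9.92% with a mean of at least 6, and 11.65% of 8205 genes with the subtraction. When an array was left out, most calls over the whole array ended, and that of the Cenpe probe set held only without L27. The subtraction used 1 probe set a gene, on which 0 members had passed without it. The block leaves fewer degrees of freedom. The 3 further mitotic genes past the threshold became 5 with a variance trend (also 5 with robust estimation) and 5 with a mean of at least 6. They became 6 with log2 of the value plus 16, and 10 with probe sets averaged for each gene, where 5.87% of all genes passed. Each of the 3 calls ended with any array left out. With the control block they were 0, while Kif18a and Nde1 still passed with the neighbours' median subtracted. The causes were not tested. The median class difference of the members lay between -0.09 and 0.08 over all alternatives, so its sign is not settled. The median of H27 minus H23 lay between -0.17 and -0.12, and that of L27 minus L25 between 0.14 and 0.21. Of 663 named gene differences recomputed, 0 reversed past the threshold, 16 lost it and 1 gained it. All the losses fell on Spc24, Kif18a and Nde1, the only named genes past it to begin with, and most came with an array left out. Another 30 moved, such as Cenpa from -0.05 to 0.23 without probe sets that can match several transcripts. No paired analysis was possible because the labels number no replicates across the classes. With 2 arrays for each class, 25 of the 32 intervals hold 0.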
